A study of Mus musculus with 12 samples.

Results

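The imprinted growth-network genes considered here are Mest, H19, Meg3, Peg3, Plagl1, Grb10, Ndn, Peg10, Rian and Sgce, chosen by name from the genes known to be imprinted in the mouse. They were chosen with earlier results of these data known, so shares of the 10 set beside shares of all genes are a description. All 10 had a row among the 25887 gene identifiers of the series, matched by Ensembl identifier, and all 10 had a mean of at least 10 normalized counts in every comparison, so none was lost to the filter on low values. The series profiled dermal papilla cells sorted by FACS from mouse skin, in 12 RNA sequencing libraries, 3 in each of 4 groups. At postnatal day 20 (P20) the libraries came from females in telogen, when follicles rest, and were Smo* mutant or wild type (WT). At postnatal day 28 (P28) they came from males, and the Smo* mutants were labelled anagen I-III (early growth stage) whereas the WT mice were labelled Anagen VI (full growth stage). Smo* is a gain-of-function form of Smoothened, the membrane protein that passes on the Hedgehog signal, and was made specific to the dermal papilla. The sources used here do not name the Cre line, the allele or the strain, or say whether animals were pooled. Genotype and hair cycle stage therefore change together at P28, and age, sex and stage change together between P28 and P20, so these cannot be told apart.

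An imprinted gene is transcribed mainly from the copy inherited from 1 parent, as set by DNA methylation laid down in the germ line. Many imprinted genes act on growth before birth, are expressed together in embryonic and mesenchymal tissue, and are switched down after birth; Plagl1, a zinc-finger transcription factor, is known as a regulator of this network and of the H19 locus. The dermal papilla is the mesenchymal cluster at the base of the hair follicle that receives Hedgehog signals from the follicle epithelium and instructs hair growth. The deposited values add up both parental copies, so they say nothing of which copy was transcribed.

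Positions are those of the GENCODE annotation of GRCm38, the build named by the submitters. Mest lies on chromosome 6 from 30723547 to 30748465, and its 3′ end shares 912 bp of exon with Copg2 on the other strand. Sgce (chromosome 6, 4674350 to 4747207) and Peg10 (chromosome 6, 4747306 to 4760517) are divergent neighbours whose annotated ends are 99 bp apart. Meg3 (chromosome 12, 109541001 to 109571726) and Rian (chromosome 12, 109603940 to 109661716) are transcribed in the same direction within the Dlk1-Dio3 locus. Peg3 (6703892 to 6730431), Ndn (62346569 to 62350262) and H19 (142575529 to 142578143) all lie on chromosome 7. Plagl1 lies on chromosome 10 (13060504 to 13131694) and Grb10 on chromosome 11 (11930508 to 12038683). The kit marks the strand, but no source states that the counting made use of it, and reads of Mest and Copg2 may be mixed where they overlap.

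Mest and H19, which had the largest called log2 fold changes among the 10 genes, each carry a microRNA inside the transcribed region, Mir335 in a Mest intron and Mir675 in the H19 exon. Their mature sequences (RefSeq, GRCm38.p6) are shown to identify these products, with the seed, bases 2 to 8, in capitals. No row of the deposited values measures the mature microRNAs, and the 4 seeds all differ.
mmu-miR-335-5p: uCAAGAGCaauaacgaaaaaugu
mmu-miR-335-3p: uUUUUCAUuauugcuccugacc
mmu-miR-675-5p: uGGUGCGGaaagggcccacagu
mmu-miR-675-3p: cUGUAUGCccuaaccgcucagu

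Promoter windows of 250 bases before to 50 bases after an annotated start (RefSeq, GRCm38.p6) were held for 7 of the 10 genes, in 11 windows. The 4 stretches below are the 250 bases before the start for the 3 genes that were higher in P28 Smo* cells, with both distinct Mest starts, in the direction of transcription and with motif matches in capitals.
Mest upstream start, chr6:30733256-30733505, plus strand: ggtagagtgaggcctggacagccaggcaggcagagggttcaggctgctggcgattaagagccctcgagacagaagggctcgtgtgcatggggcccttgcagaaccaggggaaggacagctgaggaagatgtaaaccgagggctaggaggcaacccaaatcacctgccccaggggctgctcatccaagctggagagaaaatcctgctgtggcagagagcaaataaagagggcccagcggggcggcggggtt
Mest downstream start, chr6:30737800-30738049, plus strand: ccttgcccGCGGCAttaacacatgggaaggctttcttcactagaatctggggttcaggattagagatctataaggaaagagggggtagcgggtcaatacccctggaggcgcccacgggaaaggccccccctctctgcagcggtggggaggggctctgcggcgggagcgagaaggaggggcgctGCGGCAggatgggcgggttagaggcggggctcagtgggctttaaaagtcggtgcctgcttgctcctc
Peg3, chr7:6730420-6730669, minus strand: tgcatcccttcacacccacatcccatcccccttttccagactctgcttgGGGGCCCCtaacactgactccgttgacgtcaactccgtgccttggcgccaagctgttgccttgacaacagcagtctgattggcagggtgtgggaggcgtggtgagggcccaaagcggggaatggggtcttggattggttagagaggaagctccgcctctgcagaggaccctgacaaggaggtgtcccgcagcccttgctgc
Plagl1, chr10:13090582-13090831, plus strand: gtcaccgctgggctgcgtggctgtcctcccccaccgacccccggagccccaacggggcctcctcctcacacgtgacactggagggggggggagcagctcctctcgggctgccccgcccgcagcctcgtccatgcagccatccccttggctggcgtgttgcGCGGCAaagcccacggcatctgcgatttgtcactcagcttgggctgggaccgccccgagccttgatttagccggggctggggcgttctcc

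Both strands of each window were searched for 4 motifs. The hexamer TGCCGC of Zfp57, a protein that keeps methylation at imprinted loci, which reads GCGGCA on the other strand, was found 242 and 67 bases before the downstream Mest start and 90 bases before the Plagl1 start. In all, 5 of the 11 windows held it, among them both downstream Mest windows, which overlap almost entirely, against 11.6% of all 32851 promoter windows in the table. The hexamer contains a CpG (a C followed by a G). The windows that held it had 13 to 45 CpG and the others 0 to 13, against a median of 7 over all windows. The part of CpG content in this share was not tested. The Plagl1 motif GGGGCCCC was found once among the 11 windows, 201 bases before the Peg3 start, against 1.08% of all windows. The Gli motif GACCACCCA, recognized by the transcription factors at the end of the Hedgehog pathway, was in 0 of the 11 windows and in 0.253% of all windows. The Yy1 motif GCCATNTT was in 0 of the 11 windows and in 6.05% of all windows. No match overlapped another motif, and a match is a string of letters, not evidence of binding.

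The libraries held 36323058 to 48926831 reads on genes, and the values are read counts divided by 1 size factor per library, on 1 scale for all 12 libraries. Hedgehog targets followed the labels: Gli1 was 3665 to 5323 normalized counts in P20 Smo* and 1022 to 2245 in P20 WT libraries, and 4071 to 4435 in P28 Smo* and 1396 to 1581 in P28 WT libraries. One library stood apart, P28 Smo* replicate 3, which had 15453 genes with a read where every other library had at least 17337, and whose Spearman correlation across genes with the other P28 Smo* libraries was 0.962 and 0.959, where every other pair within a group reached at least 0.976. Summed over 21 dermal papilla markers, that library had 66043 normalized counts, the other P28 Smo* libraries had 263860.4 and 405649.7, and P28 WT libraries had 521414 to 616354. Its sum over 6 adipocyte markers was 12411, the other P28 Smo* libraries had 1125 and 642, and P28 WT libraries had 706 to 781. Differences that involve P28 Smo* cells are therefore also given without it. The labels do not say that replicates were separate animals. The spread that the p-values measure is that of these libraries and may be technical.

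Compared per kb of exon, which puts genes of different length on 1 scale, the network genes were not at one level. Grb10, an adaptor that dampens insulin and IGF receptor signalling, and Ndn (necdin, a growth suppressor of the MAGE family) were high everywhere: Grb10 averaged 1180.1 ± 70.6, 1197 ± 43.3, 1268 ± 51.2 and 1181 ± 52.9 normalized counts per kb in P20 Smo*, P20 WT, P28 Smo* and P28 WT cells (SD, n = 3 each). Peg10 and Meg3 were low throughout, with Peg10 at 127 ± 23.9, 151 ± 49.8, 130.4 ± 15.1 and 97.2 ± 17.7 per kb in the same order (SD, n = 3 each). The place of the others depended on the group. In P20 WT cells H19 had the highest mean, at 1383 ± 318 per kb, but its libraries overlapped those of Grb10, the next gene down, and Mest was last at 109 ± 9.89 per kb, with libraries that overlapped those of Meg3. In P28 Smo* cells Mest stood between Ndn and H19, at 649 ± 214 per kb, and overlapped both. In P28 WT cells Mest and H19 stood next to each other near the bottom, at 114 ± 46 and 159.9 ± 44 per kb, and overlapped (SD, n = 3 each).

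**Figure D1:**
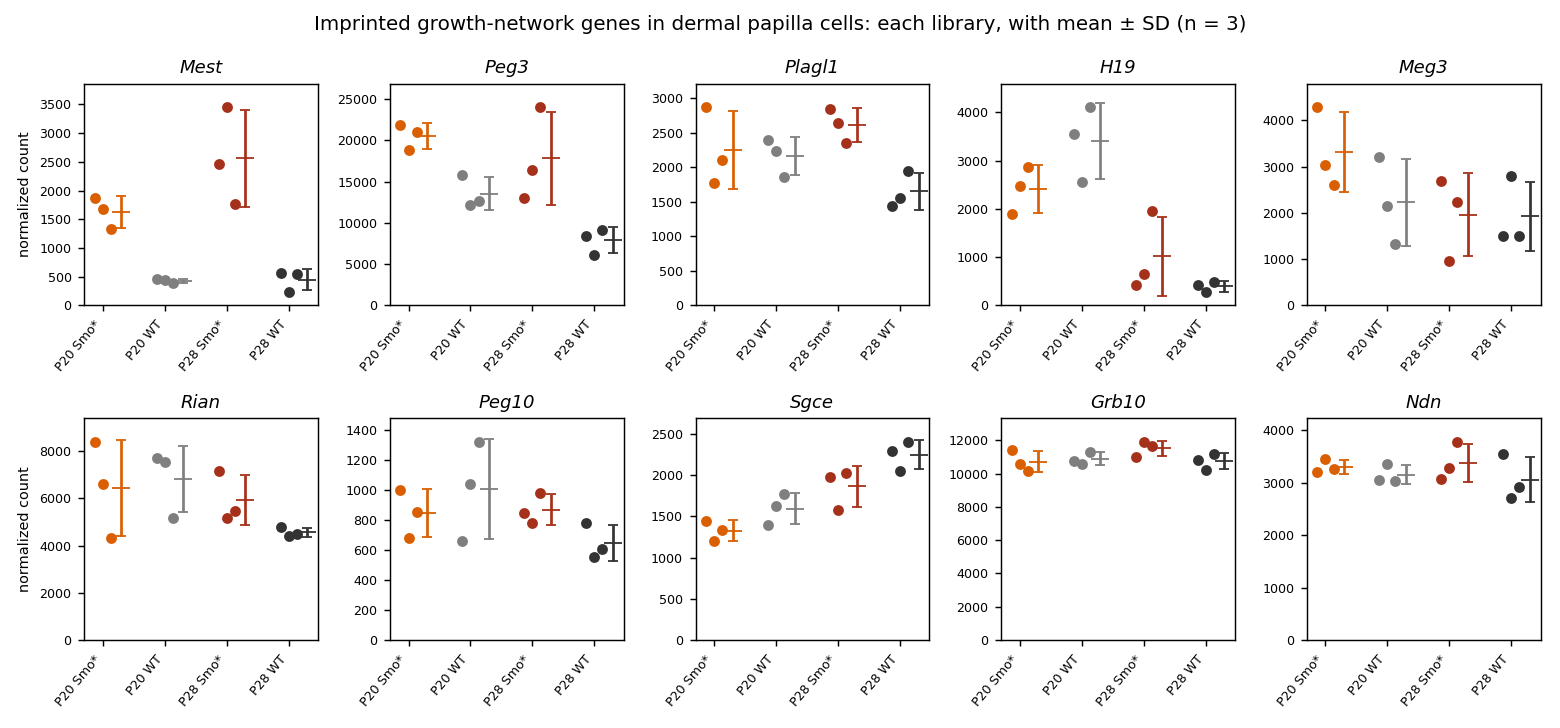
Normalized read counts of the 10 imprinted genes (y axis, from 0, not corrected for length) in P20 Smo*, P20 WT, P28 Smo* and P28 WT dermal papilla cells (x axis). Points are single libraries and the bar beside them is the mean ± SD of 3. Mest separates Smo* from WT at both ages, H19 is lower at P28 than at P20 in WT cells, and Grb10 stays between 10161 and 11889.8 in all 12 libraries.

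The first comparison asks which of these genes differ between Smo* and WT papilla in telogen, when both genotypes are at the same labelled stage. Mest, a paternally expressed gene that encodes a hydrolase-fold protein of the endoplasmic reticulum, rose. It had 1877, 1679 and 1333 normalized counts in the P20 Smo* libraries, against 456, 445 and 384 in the P20 WT libraries. The lowest Smo* library was well above the highest WT library. This is a log2 fold change of 1.92 (SE 0.16), or 3.77-fold, with a limma adjusted p of 0.00296, the fifth smallest p among the 14645 genes tested. The call held when any 1 library was left out, at log2 fold changes of 1.81 to 2.05 and limma adjusted p of 0.00299 to 0.0274. The authors' deposited table, which gives WT over Smo*, has -1.74 for Mest at P20 with an adjusted p of 7.33e-08.

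Mest was the 1 gene of the 10 called higher at P20, where 0.485% of all genes tested were called higher. The 10 were chosen with earlier results of these data known, so this share is not an independent excess. Ranges separated by genotype in 2 of the 10, Mest and Peg3, against 16.4% of all genes tested. Peg3, a paternally expressed zinc-finger gene, had 21879, 18822 and 20992 normalized counts in P20 Smo* libraries, against 15814, 12178 and 12611 in P20 WT libraries. All 3 Smo* libraries lay above all 3 WT libraries, but the log2 fold change of 0.61 (SE 0.13) did not pass in limma, with an adjusted p of 0.105. It passed with DESeq2 on the recovered reads, with an adjusted p of 0.0043, and after quantile normalization, with a limma adjusted p of 0.0325. It did not pass in the authors' deposited table, with an adjusted p of 0.192.

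The other 8 genes overlapped between genotypes at P20, with adjusted p of 0.417 to 0.969 in limma. H19, the maternally expressed noncoding RNA, had 1883, 2463 and 2866 normalized counts in P20 Smo* libraries, against 3548, 2556 and 4102 in P20 WT libraries. The WT libraries were mostly higher, but replicate 3 of Smo* lay above replicate 2 of WT, and the log2 fold change was -0.49 (SE 0.21, limma adjusted p = 0.417). Plagl1 had 2867, 1767 and 2110.1 normalized counts in P20 Smo* libraries, against 2392, 2241 and 1859.7 in P20 WT libraries. Those ranges cover each other, and the log2 fold change was 0.034 (SE 0.18, limma adjusted p = 0.969). The median log2 fold change of the 10 genes at P20 was 0.0060, and that of all genes tested was 0.0025.

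Marker lists were read beside these values at P20, where limma called 71 of all 14645 genes tested higher and 31 lower. Of 21 dermal papilla markers 4 rose and 1 fell, and their sum was 99027 to 133893 normalized counts in P20 Smo* and 85731 to 114277 in P20 WT libraries. Of 13 dermal fibroblast markers 1 fell, and their sum was 163089 to 197772 in P20 Smo* and 220109.7 to 240051 in P20 WT libraries, which did not overlap. The 6 adipocyte markers summed to 2027, 674 and 3855 in P20 Smo* libraries and to 395, 1095 and 1399 in P20 WT libraries, so Smo* replicates 1 and 3 lay above the WT range and replicate 2 within it. None of these lists had a marker at 0 in all libraries, and the part of the fibroblast and adipocyte markers in the result was not tested. In bulk libraries, fewer cells of a type and less RNA per cell cannot be told apart.

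**Figure D2:**
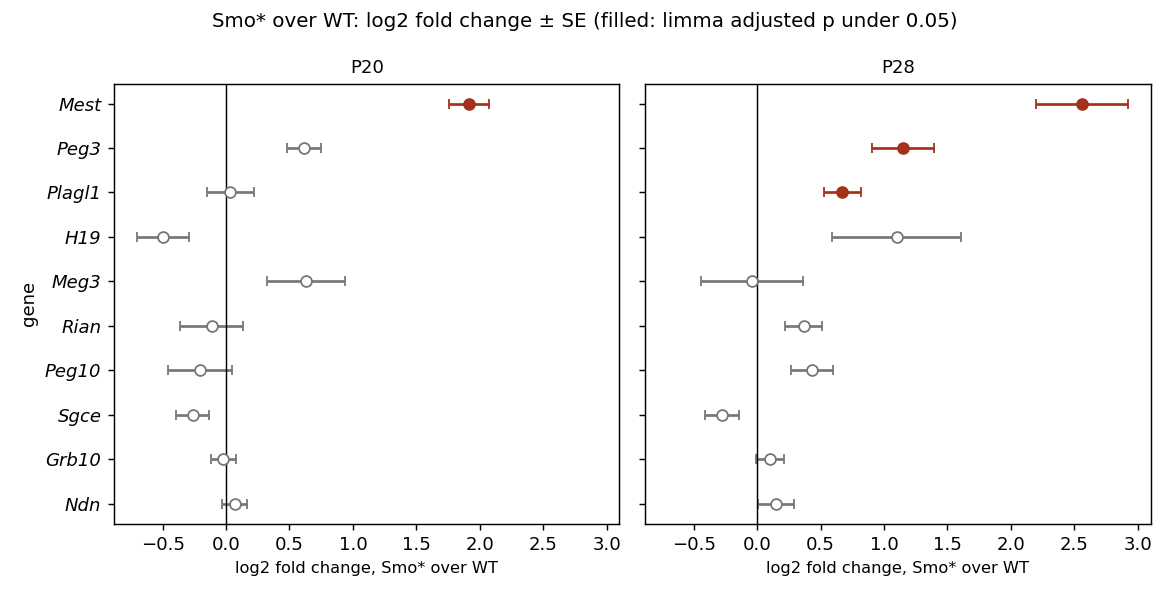
Log2 fold change of Smo* over WT (x axis) for each of the 10 genes (y axis) at P20 on the left and P28 on the right. Points are limma estimates on log2(normalized count + 1), bars are their SE, and filled points have an adjusted p under 0.05: Mest at P20, and Mest, Peg3 and Plagl1 at P28.

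At P28 the comparison sets Smo* papilla in early anagen against WT papilla in full anagen. Mest, Peg3 and Plagl1 rose, 3 of the 10 genes, where 4.05% of all 14757 genes tested were called higher. Here too the share is not an independent excess, since the 10 were chosen with earlier results known. Ranges separated by genotype in 6 of the 10, against 33.4% of all genes tested, and the further 3 were Peg10, Rian and Sgce. The median log2 fold change of the 10 genes was 0.40, and that of all genes tested was -0.0098.

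Mest had 2454, 3449 and 1773 normalized counts in P28 Smo* libraries, against 563, 239 and 541 in P28 WT libraries. Every Smo* library was above every WT library. The P28 WT mean of 448 was near the P20 WT mean of 428, although the P28 WT libraries differed by up to 2.36-fold. The log2 fold change was 2.56 (SE 0.36), or 5.89-fold, with a limma adjusted p of 0.00514. Without the P28 Smo* library that stood apart it was 2.80 (limma adjusted p = 0.00244). The call held under every other alternative tried, with adjusted p of at most 0.0347. Copg2, the antisense neighbour, had 1247, 1497 and 851 normalized counts in P28 Smo* libraries, against 1558, 1564 and 1599 in P28 WT libraries, with a log2 fold change of -0.43 (SE 0.20, limma adjusted p = 0.209), and at P20 its log2 fold change was 0.13 (SE 0.12, limma adjusted p = 0.754).

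Peg3 had 12996, 16421 and 24001 normalized counts in P28 Smo* libraries, against 8458, 6091 and 9091 in P28 WT libraries. The 3 Smo* libraries were spread widely, with the highest value in the library that stood apart, yet all lay above the WT range. The log2 fold change was 1.15 (SE 0.25), or 2.22-fold, with a limma adjusted p of 0.0264. Without that library it was 0.91 and still passed (limma adjusted p = 0.0247). It did not pass without Smo* replicate 2 or without any 1 of the 3 WT libraries, with limma adjusted p of 0.0501 to 0.105, nor without a variance trend, with 0.0835.

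Plagl1 had 2842, 2647 and 2349.9 normalized counts in P28 Smo* libraries, against 1441, 1561 and 1949 in P28 WT libraries. The groups did not overlap, and the gap between them was narrower than the spread within either. Its log2 fold change was 0.67 (SE 0.15), or 1.59-fold, with a limma adjusted p of 0.0280. Without the library that stood apart it was 0.74 (limma adjusted p = 0.0181). The call was lost without Smo* replicate 1 or 2, without WT replicate 1 or 2, with limma adjusted p of 0.0649 to 0.109, and without a variance trend, with 0.0845.

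H19 at P28 turned on 1 library. It had 429, 658 and 1955 normalized counts in P28 Smo* libraries, against 423, 273 and 483 in P28 WT libraries. The high value was in the library that stood apart, and the first Smo* library was inside the WT range. The log2 fold change was 1.10 (SE 0.51, limma adjusted p = 0.211), and without that library it was 0.47 (limma adjusted p = 0.334). DESeq2 on the recovered reads of all P28 libraries called H19, with an adjusted p of 0.0282. The authors' deposited table did not, with an adjusted p of 0.0827. In that library the adipocyte markers Cfd and Adipoq had 8165 and 1018 normalized counts, the other P28 Smo* libraries had at most 100.3 and 25.3, and P28 WT libraries had 0 of Cfd and at most 3.68 of Adipoq. The part of these markers in the H19 value was not tested.

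**Figure D3:**
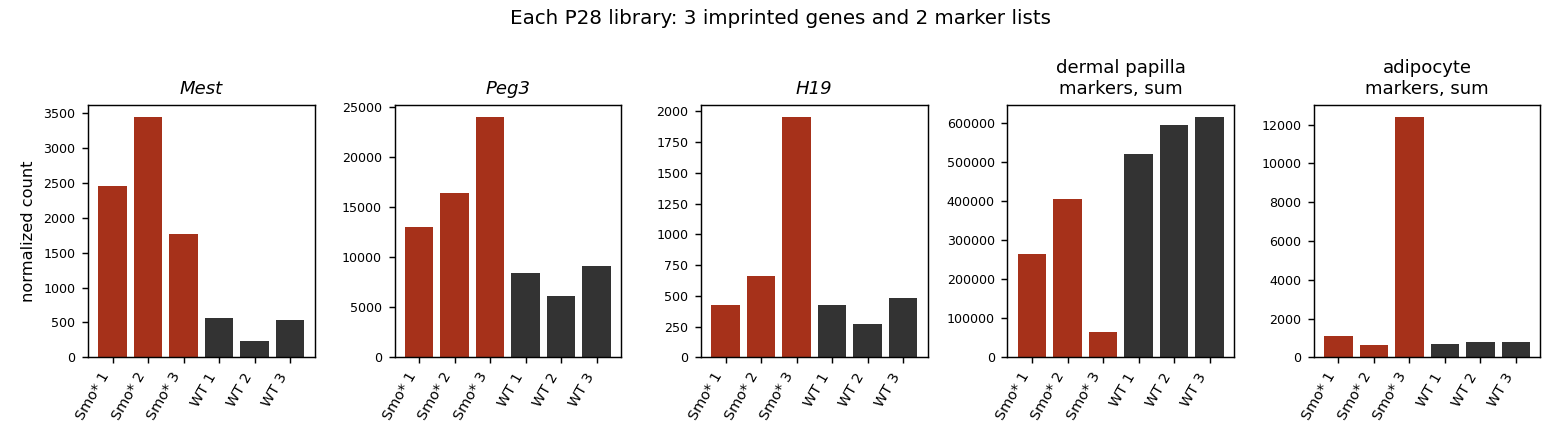
Normalized counts (y axes, from 0) in each of the 6 P28 libraries (x axis), Smo* in red and WT in dark grey: Mest, Peg3 and H19, then the sums of 21 dermal papilla markers and of 6 adipocyte markers. Smo* replicate 3 has the highest H19 (1955) and Peg3 (24001), the lowest Mest of the Smo* libraries (1773), the lowest dermal papilla sum (66043) and the highest adipocyte sum (12411).

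Among the neighbours, Rian, a noncoding host of small nucleolar RNAs and microRNAs, had 7146, 5179 and 5453 normalized counts in P28 Smo* libraries, against 4784, 4412 and 4469.8 in P28 WT libraries. The groups did not overlap, and the log2 fold change was 0.37 (SE 0.14, limma adjusted p = 0.152), or 0.42 without the library that stood apart (limma adjusted p = 0.133). Peg10, derived from a retrotransposon and needed in the placenta, had 845, 782 and 979.7 normalized counts in P28 Smo* libraries, against 780.0, 553 and 609.6 in P28 WT libraries. Its lowest Smo* library was barely above its highest WT library, and the log2 fold change was 0.43 (SE 0.17, limma adjusted p = 0.149), or 0.34 without that library (limma adjusted p = 0.256). Sgce, which encodes epsilon-sarcoglycan, had 1984, 1578 and 2027 normalized counts in P28 Smo* libraries, against 2289, 2052 and 2401 in P28 WT libraries. It was the 1 gene of the 10 whose Smo* libraries all lay below the WT range, with a log2 fold change of -0.28 (SE 0.14, limma adjusted p = 0.238), or -0.34 without that library (limma adjusted p = 0.172).

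Meg3, a maternally expressed noncoding RNA, had 2687, 951 and 2243 normalized counts in P28 Smo* libraries, against 1494, 2786 and 1499 in P28 WT libraries. Its replicates of 1 group differed by up to 2.82-fold, the widest spread of the 10 after H19, and the log2 fold change of -0.041 (SE 0.40, limma adjusted p = 0.962), or -0.20 without the library that stood apart (limma adjusted p = 0.813), changes sign with the tool. Grb10 and Ndn differed by less than their spread at both ages, with log2 fold changes of -0.022 (SE 0.10) and 0.068 (SE 0.098) at P20 and 0.10 (SE 0.11) and 0.15 (SE 0.14) at P28, or 0.092 and 0.065 at P28 without that library. Over all 12 libraries Grb10 varied 1.17-fold and Ndn 1.39-fold, where Mest varied 14.4-fold and H19 15.0-fold.

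Several marker lists moved at P28, where limma called 4.05% of all genes tested higher and 4.85% lower. Of 21 dermal papilla markers 7 fell and 1 rose, and their sum was 66043 to 405649.7 normalized counts in P28 Smo* and 521414 to 616354 in P28 WT libraries. Of 10 endothelial markers 3 rose, and their sum was 4015 to 6821 in P28 Smo* and 2063 to 3638 in P28 WT libraries. Dermal fibroblast sums overlapped, at 197668 to 242369.7 in P28 Smo* and 157392 to 247693 in P28 WT libraries, with 1 of 13 markers higher and 1 lower. Keratinocyte sums did not overlap, at 1901 to 2939 in P28 Smo* and 1693 to 1843 in P28 WT libraries, with 1 of 10 markers higher. Of 8 markers of smooth muscle and dermal sheath 1 rose, of 6 pericyte markers 1 fell, and of 2 hair matrix and shaft markers tested 1 fell. Among the P28 Smo* libraries, Mest was lowest, at 1773, in the one with the fewest dermal papilla and the most adipocyte counts. The P28 WT libraries, whose dermal papilla sums were higher than in any P28 Smo* library, had only 239 to 563 of Mest. The part of the cell mixture in the 3 calls was not tested.

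The difference of the Smo* effect between P28 and P20 was tested in 1 fit of all 12 libraries. None of the 10 genes passed in limma, edgeR or DESeq2, where limma called 4.72% of all 14790 genes tested. An unadjusted limma p under 0.05 was found for 3210 of all 14790 genes tested and for 2 of the 10. The 2 were H19, with a difference of 1.59 on the log2 scale (SE 0.61, limma adjusted p = 0.155), and Plagl1, with 0.64 (SE 0.25, limma adjusted p = 0.162). For Mest the effect at P28 exceeded that at P20 by 0.64 (SE 0.43, limma adjusted p = 0.416), so its larger fold at P28 was not distinguishable from that at P20. Without the P28 library that stood apart these differences were 0.97 for H19, 0.71 for Plagl1 and 0.88 for Mest, with limma adjusted p of 0.144 to 0.259. The median of the 10 differences was 0.51, and that of all genes tested was -0.017.

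Between P20 and P28, H19, Peg3 and Sgce were called in WT papilla. Age, sex and hair cycle stage all differ between these 2 groups and cannot be told apart. Markers of several cell types were also called in WT cells, where limma called 13.5% of all genes tested higher and 11.9% lower. Of 21 dermal papilla markers 14 rose and 1 fell, of 13 dermal fibroblast markers 2 rose and 3 fell, of 8 markers of smooth muscle and dermal sheath 3 rose, of 6 pericyte markers 3 fell and of 10 endothelial markers 2 fell. The part of these cell types in the calls was not tested. H19 fell to 423, 273 and 483 normalized counts in P28 WT libraries, against 3548, 2556 and 4102 in P20 WT libraries. The highest P28 library was far below the lowest P20 library. The log2 fold change was -3.12 (SE 0.43), and its limma adjusted p of 0.000375 was followed by values of 0.00136 to 0.00250 when any 1 library of these groups was left out.

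Peg3 fell to 8458, 6091 and 9091 normalized counts in P28 WT libraries, against 15814, 12178 and 12611 in P20 WT libraries. The groups did not overlap, and the log2 fold change was -0.79 (SE 0.21, limma adjusted p = 0.0168). Sgce rose to 2289, 2052 and 2401 normalized counts in P28 WT libraries, against 1393, 1622 and 1772 in P20 WT libraries. These groups did not overlap either, and the log2 fold change was 0.50 (SE 0.13, limma adjusted p = 0.0161). Both calls were lost without P20 WT replicate 1, at limma adjusted p of 0.0647 for Peg3 and 0.0654 for Sgce, the call of Peg3 also without P28 WT replicate 2 (limma adjusted p = 0.0715) and that of Sgce without P28 WT replicate 3 (limma adjusted p = 0.0692). In all, limma called 1 of the 10 higher and 2 lower in WT cells, where it called 13.5% of all genes tested higher and 11.9% lower. The limma shares are thus not far from the background. edgeR called the same counts, and DESeq2 called 1 higher and 4 lower, adding Peg10 (adjusted p = 0.0401) and Rian (adjusted p = 0.0467). The shares of edgeR and DESeq2 over all genes are not given here. Peg10 also passed in limma without P20 WT replicate 1 (adjusted p = 0.0117) and Rian without P20 WT replicate 3 (adjusted p = 0.0458).

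In Smo* cells none of the 10 passed between P28 and P20 in limma or edgeR, where limma called 3.46% of all genes tested. DESeq2 called Sgce, among 1615 genes in all. At an unadjusted p under 0.05 limma had 2 of the 10, H19 and Sgce, and 3368 of all 14790 genes tested. H19 was at 429, 658 and 1955 normalized counts in P28 Smo* libraries, against 1883, 2463 and 2866 in P20 Smo* libraries. It overlapped through the P28 library that stood apart, and its log2 fold change was -1.53 (SE 0.43, limma adjusted p = 0.0678). Without that library the log2 fold change was -2.15 and passed (limma adjusted p = 0.00101). Sgce was at 1984, 1578 and 2027 normalized counts in P28 Smo* libraries, against 1449, 1200.4 and 1333 in P20 Smo* libraries, with no overlap and a log2 fold change of 0.48 (SE 0.13, limma adjusted p = 0.0616), or 0.42 without that library (limma adjusted p = 0.101). The median over the 10 genes was 0.039 in Smo* cells and -0.29 in WT cells, and over all genes tested -0.0012 and -0.0061.

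**Figure D4:**
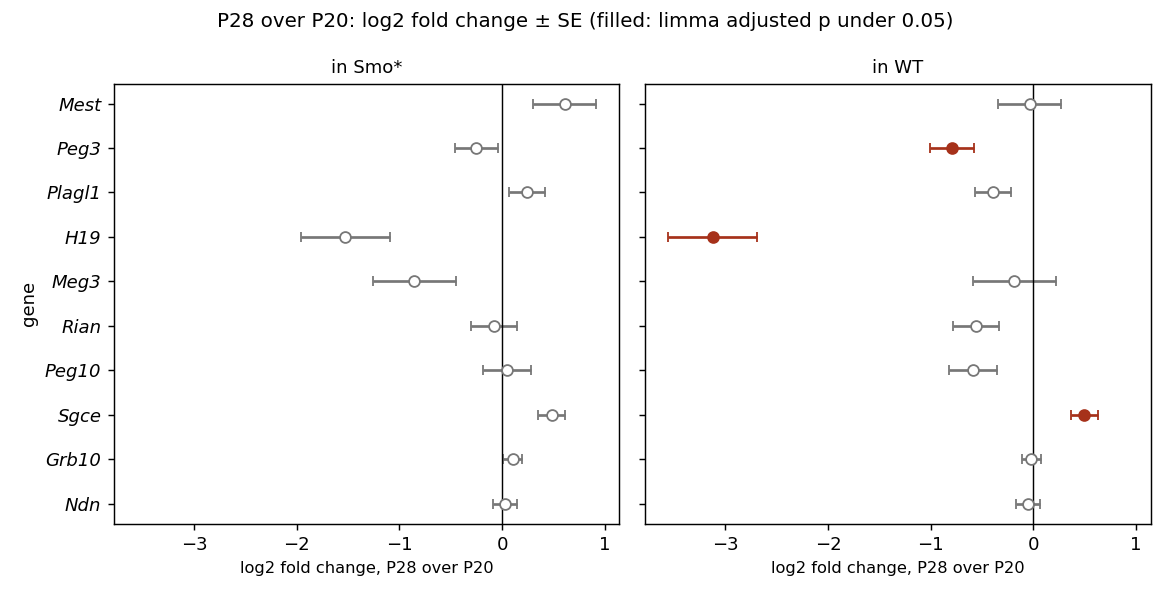
Log2 fold change of P28 over P20 (x axis) for each of the 10 genes (y axis) in Smo* cells on the left and WT cells on the right. Points are limma estimates on log2(normalized count + 1), bars are their SE, and filled points have an adjusted p under 0.05. In WT cells H19 (-3.12), Peg3 (-0.79) and Sgce (0.50) passed, and in Smo* cells none did.

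Meg3 and Rian share 1 imprinted locus and 1 direction of transcription, and Sgce and Peg10 share a divergent promoter region, so the log2 ratio of each pair within a library, from which the scaling cancels, was compared between genotypes. The log2 ratio of Meg3 over Rian (not per length) was -0.97, -1.12 and -0.72 in P20 Smo* libraries, against -1.27, -1.81 and -1.96 in P20 WT libraries. All 3 Smo* libraries were above all 3 WT libraries, a difference of 0.74, with a two-sided exact permutation p of 0.1, the smallest that 3 against 3 can give. At P28 it was -1.41, -2.44 and -1.28 in Smo* libraries, against -1.68, -0.66 and -1.58 in WT libraries, which overlap (difference -0.41, exact permutation p = 0.6), and without the library that stood apart the difference was -0.62.

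The log2 ratio of Peg10 over Sgce was -1.23, -1.01 and -1.05 in P28 Smo* libraries, against -1.55, -1.89 and -1.98 in P28 WT libraries. Here too the groups did not overlap, with a difference of 0.71, or 0.68 without that library, and the smallest possible exact permutation p of 0.1. At P20 it was -0.53, -0.81 and -0.64 in Smo* libraries, against -1.08, -0.64 and -0.43 in WT libraries, which overlap (difference 0.055, exact permutation p = 0.9). These are 4 comparisons, and with 3 libraries against 3 none could pass 0.05.

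Other genes of the imprinted loci, 58 with a row of the 65 listed, put the 10 in context. At P20, limma called 0 of the 49 tested, edgeR 0 and DESeq2 3, where DESeq2 called 480 genes in all and limma 102. An unadjusted limma p under 0.05 was found for 10 of the 49, and for 1669 of all 14645 genes tested. Snrpn, which encodes a splicing protein of the Prader-Willi locus, came closest, at 198, 263 and 141 normalized counts in P20 Smo* libraries, against 64.4, 78 and 49.1 in P20 WT libraries. The groups did not overlap (log2 fold change 1.62, SE 0.29, limma adjusted p = 0.0576). Snrpn passed with DESeq2, in limma on 12 libraries (adjusted p = 0.0345) and without P20 Smo* replicate 3 (limma adjusted p = 0.0393). It also passed in the authors' deposited table (adjusted p = 0.000142). The log2 fold change at P20 was 0.64 (SE 0.22) for Dlk1, -0.32 (SE 0.29) for Igf2, 0.013 (SE 0.30) for Cdkn1c, -0.057 (SE 0.47) for Magel2, -0.10 (SE 0.15) for Igf2r and 0.55 (SE 0.13) for Gnas. Gnas, not called in limma, passed with DESeq2 (adjusted p = 0.0247) and in the authors' deposited table (adjusted p = 0.0300).

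At P28, 5 of the 48 tested rose and 3 fell in limma and in edgeR, where limma called 4.05% of all genes tested higher and 4.85% lower. DESeq2 had 9 higher and 3 lower, adding Klf14, Gnas, Igf2r and Zdbf2, and called 2296 genes in all against 1313 in limma. Those that rose were Dlk1, Atp10a, Zim1, Cobl and Slc22a3, and those that fell were Dio3, Pon2 and Casd1. The median of the 48 log2 fold changes was 0.18.

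Dlk1, a paternally expressed Notch-related membrane protein of the locus of Meg3 and Rian that is also among the fibroblast markers, had 209, 141 and 306 normalized counts in P28 Smo* libraries, against 93.9, 80.8 and 77.4 in P28 WT libraries. The groups did not overlap (log2 fold change 1.31, SE 0.31, limma adjusted p = 0.0375), but the call held when 1 library was left out only for Smo* replicate 2, and the other 5 gave limma adjusted p of 0.0503 to 0.131. Without the library that stood apart the log2 fold change was 1.03 (limma adjusted p = 0.0503). The call of Dlk1 was also lost without a variance trend (limma adjusted p = 0.0699) and with no filter on low values (limma adjusted p = 0.0529). At the other end of the same locus, Dio3, which inactivates thyroid hormone, had 14.3, 28.5 and 13.9 normalized counts in P28 Smo* libraries, against 172, 418 and 121 in P28 WT libraries. It fell by 3.45 on the log2 scale (SE 0.52, limma adjusted p = 0.00689), without overlap, and the call held without any 1 library (log2 fold change -3.28 without the one that stood apart).

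Cobl, an actin nucleator beside Grb10, had 255, 285 and 206 normalized counts in P28 Smo* libraries, against 64.0, 54.6 and 54.3 in P28 WT libraries. It rose by 2.08 on the log2 scale (SE 0.24, limma adjusted p = 0.00195), and the call held without any 1 library, while Grb10 itself had overlapping groups. Near Sgce and Peg10, Pon2 (a lactonase of the paraoxonase family) fell by 1.08 (SE 0.16, limma adjusted p = 0.00683) and Casd1 (a sialic acid acetyltransferase) fell by 0.56 (SE 0.11, limma adjusted p = 0.0224). The call of Pon2 held without any 1 library, and that of Casd1 was lost without any 1 of the 3 WT libraries (limma adjusted p of 0.0690 to 0.0952). Atp10a, a lipid flippase of the locus of Ndn, rose by 0.84 (SE 0.19, limma adjusted p = 0.0301), where Ndn had overlapping groups. That call was lost without Smo* replicate 2 or any 1 WT library (limma adjusted p of 0.0562 to 0.116). Slc22a3, an organic cation transporter beside Igf2r, had 142, 109 and 376 normalized counts in P28 Smo* libraries, against 58.0, 41.6 and 27.6 in P28 WT libraries. It rose by 2.12 (SE 0.50, limma adjusted p = 0.0367), with the highest value in the library that stood apart, and the call was lost without Smo* replicate 1 or any 1 WT library (limma adjusted p of 0.0600 to 0.130). The calls of Casd1, Atp10a and Slc22a3 were also lost without a variance trend. Without the library that stood apart, the log2 fold change was 2.21 for Cobl, -1.05 for Pon2, -0.51 for Casd1, 0.65 for Atp10a and 1.59 for Slc22a3, and all 5 passed.

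Igf2, the growth factor of the H19 locus, had 562, 396 and 1289 normalized counts in P28 Smo* libraries, against 1267, 1543 and 1387 in P28 WT libraries. The library that stood apart reached the WT range, and the log2 fold change was -1.08 (SE 0.38, limma adjusted p = 0.118). Without that library it was -1.56 and passed (limma adjusted p = 0.00130). At P28 the log2 fold change was 0.33 (SE 0.17) for Cdkn1c, 0.46 (SE 0.31) for Snrpn, 0.52 (SE 0.15) for Igf2r and 0.50 (SE 0.15) for Gnas, with limma adjusted p of 0.0696 to 0.381. Snrpn passed without the library that stood apart, at 0.81 (limma adjusted p = 0.0406), where Cdkn1c was at 0.23, Igf2r at 0.43 and Gnas at 0.49 and did not pass. Igf2r and Gnas passed with DESeq2 (adjusted p of 0.0168 and 0.0364), in limma on 12 libraries (adjusted p of 0.0424 and 0.0322) and in the authors' deposited table, and Igf2r also after quantile normalization (limma adjusted p = 0.0478). Magel2 had at most 7.59 normalized counts in any P28 library and was not tested there.

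**Figure D5:**
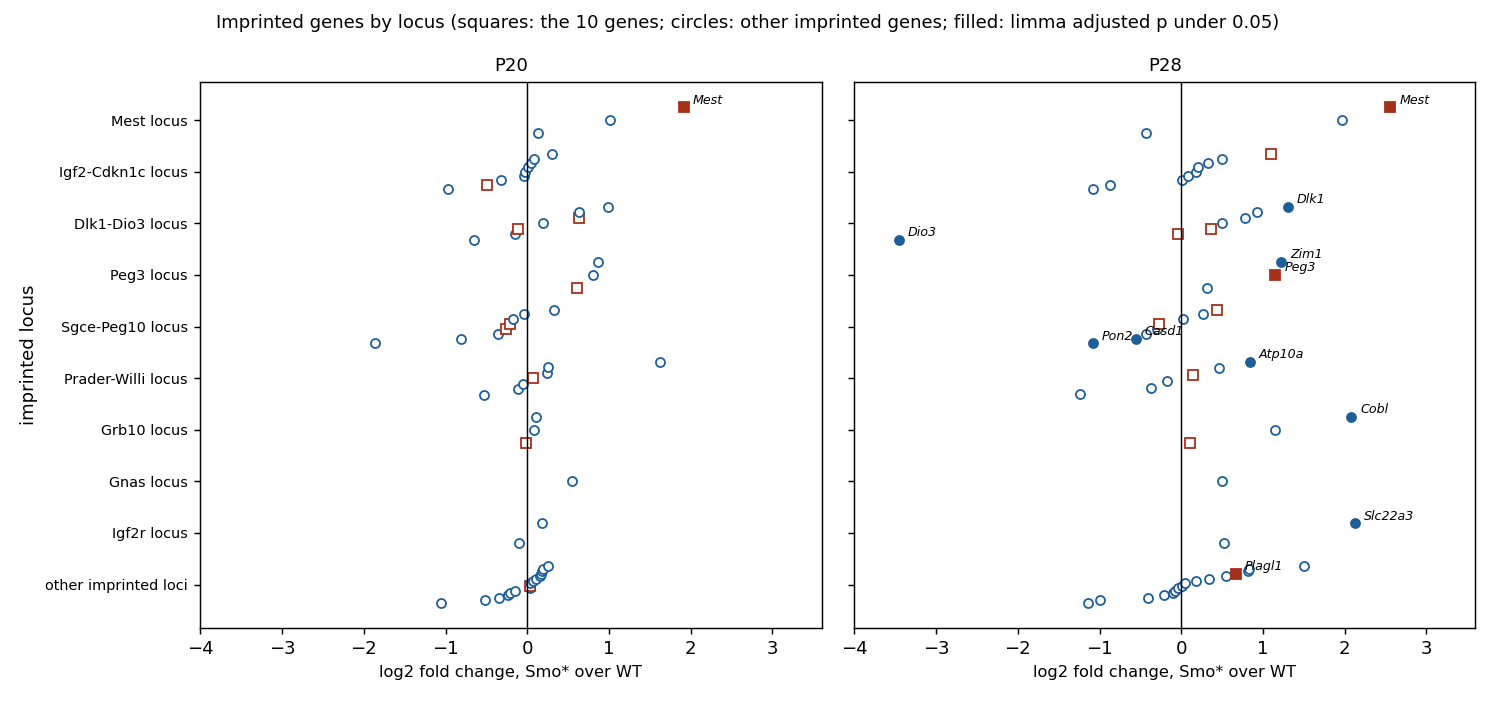
Log2 fold change of Smo* over WT (x axis) at P20 on the left and P28 on the right for the 10 genes (squares) and the other imprinted genes tested (circles), by locus (y axis). Filled symbols have a limma adjusted p under 0.05: 1 square and 0 circles at P20, 3 squares and 8 circles at P28, with Dio3 (-3.45) lowest and Mest (2.56) highest among the filled ones.

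Between P28 and P20 in WT cells, 6 of the 49 other imprinted genes rose and 8 fell, where 13.5% of all genes tested were called higher and 11.9% lower. Among those that fell, the log2 fold change was -1.74 (SE 0.28) for Dlk1, -1.81 (SE 0.23) for Atp10a, -2.59 (SE 0.34) for Zdbf2, -2.01 (SE 0.47) for Slc22a3 and -0.47 (SE 0.15) for Igf2r. Magel2 also fell, to 3.41, 0 and 2.76 normalized counts in P28 WT libraries, against 14.7, 32.3 and 14.5 in P20 WT libraries (limma adjusted p = 0.0275). Of the 5 fits without 1 library of these groups that tested Magel2, its call held in 1. That call was lost without P20 WT replicate 1 or 3 or P28 WT replicate 2 or 3 (limma adjusted p of 0.0512 to 0.0944). The call of Igf2r was lost when the same libraries were left out in turn (limma adjusted p of 0.0667 to 0.170), with no filter and without a variance trend. Among those that rose, the log2 fold change was 1.55 (SE 0.32) for Snrpn, 0.94 (SE 0.15) for Pon2, 0.60 (SE 0.11) for Casd1 and 0.61 (SE 0.12) for Trappc9. The limma adjusted p of these 10 genes was 0.000187 to 0.0417. In Smo* cells Cobl rose by 2.06 (SE 0.27, limma adjusted p = 0.00393) and Dio3 fell by 2.24 (SE 0.56, limma adjusted p = 0.0493), 2 of 49, where 3.46% of all genes tested were called. Without the library that stood apart, Cobl was at 2.18 and passed. Dio3 was at -2.07 without it and did not pass (limma adjusted p = 0.0687), nor without P20 Smo* replicate 1 or 3 or P28 Smo* replicate 1 or 2 (limma adjusted p of 0.0594 to 0.161), nor in 3 of 9 other settings.

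As a description of pattern, the genes nearest to each of the 10 over the 12 libraries were found by the root mean square (RMS) difference of mean-centred log2 values among 12504 other genes with a mean of at least 50. Galnt18 and St8sia2, both glycosylation enzymes, were nearest to Mest, at 0.41 and 0.51, where Mest itself varied by 1.20 around its mean. Fstl4 and Wnt10b, a Wnt ligand, were nearest to H19, at 0.38 and 0.52, where H19 varied by 1.35. Ppan and Zfyve28 were nearest to Peg3, at 0.246 each, and Ubn1 and Vgll4 to Plagl1, at 0.180 and 0.183. Lmbr1l and Gm26679 were nearest to Meg3, Tnik and Raver2 to Rian, Nbn and Zfp948 to Peg10, Cast and E130311K13Rik to Sgce, Tcf25 and Eif3c to Grb10, and Cap1 and Snap23 to Ndn, at 0.055 to 0.26. Grb10 itself varied by only 0.069, Ndn by 0.124 and Plagl1 by 0.31, so a small distance there is not a closer likeness than that of Mest or H19. In no case was the nearest gene another of the 10. For each gene only 9 of the 12504 searched were of the 10, so this says little of whether they vary together. The closest of the 10 to Mest was Peg3, at 0.89. Meg3 and Rian, of 1 locus, were 0.50 apart.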

How the data were processed

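RNA of FACS-sorted mouse dermal papilla cells was depleted of ribosomal RNA (100 ng per library) and sequenced in 12 libraries with a strand-marking kit, per the labels' protocols. Per the submitters' processing notes, the tools were DESeq2, HTSeq, TopHat2 (version 2) and Trimmomatic, and the builds GRCm38.p4 and mm10. The authors deposited 2 tables of normalized counts (unit: signal), which are read counts over 1 size factor per library: 100% of values gave whole reads within 0.01. Both tables share 1 scale, since the authors' mean column equals the mean of all 12 libraries. Also deposited are a log2 fold change of WT over Smo* and its SE (log2 scale), a test statistic (a score), the p-value and the adjusted p-value. No column was left unused.

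Gene symbols came from GENCODE (98.7% of identifiers). The main test was limma 3.58.1 (R 4.3.3) with a variance trend on log2(normalized count + 1), mean of at least 10, Benjamini-Hochberg threshold 0.05, per age on 6 libraries, and on all 12 for the difference of effects and for P28 over P20. Fold changes on this scale understate changes of low genes. Alternatives were TMM and quantile scaling, pseudocounts 0.5 and 5, a filter at a mean of 50 or none, no trend, edgeR 4.0.16 and DESeq2 1.42.0 on recovered reads, limma on 12 libraries, the authors' adjusted p and leaving out each library. The limma fit was also run on simulated counts with known changes, and its recovery of them is not given here. Replicates are numbered in accession order. Named are the 10 genes, 7 other imprinted genes, up to 6 more called per comparison, and the 2 nearest genes of each member; Zim1 and Copg2 at P28 were added after their values were seen. The genes and lists were chosen with earlier results of these data known. Kcnq1ot1, Nctc1, Zim3, Zfp264, Nespas, Airn and Peg13 were not analysed here.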

Additional observations from a re-analysis of the deposited data

Results flagged for a closer look

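The effect of Smo* differed between the ages, by the interaction test over 12 libraries, for 3 of the 49 imprinted genes tested outside the 10, where 4.72% of all genes tested were called. edgeR called 4 of the 49 and DESeq2 7, where DESeq2 called 1482 genes in all and limma 698. Cobl had a Smo* effect at P28 that exceeded that at P20 by 1.997 on the log2 scale (SE 0.38, limma adjusted p = 0.0140), and it passed in every alternative tried. Atp10a had a difference of 1.37 (SE 0.32, limma adjusted p = 0.0334), with 997, 1182 and 1619 normalized counts in P28 Smo* libraries against 743, 641 and 697 in P28 WT libraries, and 2445, 1339.8 and 1469 in P20 Smo* libraries against 2903, 2171 and 2279 in P20 WT libraries. Pon2 had a difference of -0.90 (SE 0.21, limma adjusted p = 0.0358). Without 1 library the call held in 5 of 12 cases for Atp10a and in 3 of 12 for Pon2, with limma adjusted p of up to 0.0836 and 0.0913, and it was lost for both without a variance trend (limma adjusted p of 0.0694 and 0.0557). Without P28 Smo* replicate 3, which stood apart, the difference was 2.12 for Cobl, 1.17 for Atp10a (limma adjusted p = 0.0487) and -0.87 for Pon2 (limma adjusted p = 0.0508). The stage of the hair cycle differs between genotypes at P28, so a change of effect with age and that difference cannot be told apart.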

How the results depend on the processing

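Mest passed at both ages under all alternatives tried, and H19 passed between P28 and P20 in WT cells under all of them. The lowest value of any of the 10 genes was 239 normalized counts, and each group had 3 libraries. No paired analysis was possible because the labels give no replicate numbers that groups share.

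The number of genes called moved with the tool and the library, and the cause was not tested. At P20, where limma called 102 genes, DESeq2 called 480, limma without a variance trend 9 genes, and the authors' deposited table has 342 genes. Leaving out 1 library gave 8 to 129, with 8, 19 and 42 without WT replicate 2, Smo* replicate 2 and WT replicate 1. At P28, against 1313, DESeq2 called 2296, no trend 638, and limma on 12 libraries 2058, and the authors' deposited table has 2880 genes. Leaving out 1 library gave 461 to 1619, with 461, 472, 795 and 852 without WT replicate 3, WT replicate 2, WT replicate 1 and Smo* replicate 1. For the difference between ages, against 698, DESeq2 called 1482 and no trend 384, and leaving out 1 library gave 254 (without P28 WT replicate 3) to 922 (without P28 Smo* replicate 2), with 309 to 462 without any of P20 Smo* replicates 2 and 3, P20 WT replicates 2 and 3, P28 Smo* replicate 1 and P28 WT replicate 2. Between P28 and P20 in Smo* cells, against 511, DESeq2 called 1615 and no trend 225, and leaving out 1 library gave 49 (without P28 Smo* replicate 1) to 1049 (without P28 Smo* replicate 3), with 83, 178 and 236 without P20 Smo* replicate 3, P20 Smo* replicate 1 and P28 Smo* replicate 2. In WT cells, against 3761, leaving out 1 library gave 2336 (without P28 WT replicate 3) to 3139.

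The values whose sign reversed had not passed in limma. After quantile normalization the log2 fold change was 0.15 for Grb10, 0.015 for Rian and 0.063 for Igf2r at P20, -0.034 for Ndn in the difference between ages, -0.023 for Ndn in Smo* cells, and 0.0016 for Grb10 and 0.011 for Ndn in WT cells. Meg3 at P28 was 0.028 with edgeR, 0.026 with DESeq2 and 0.021, turned to Smo* over WT, in the authors' deposited table. Mest between P28 and P20 in WT cells was 0.073 with edgeR and 0.067 with DESeq2. Leaving out 1 library gave, at P20, -0.16 to 0.19 for Plagl1, -0.068 to 0.016 for Grb10, -0.48 to 0.017 for Peg10, -0.33 to 0.15 for Rian, -0.39 to 0.21 for Cdkn1c, -0.25 to 0.31 for Magel2 and -0.21 to 0.030 for Igf2r. It gave -0.33 to 0.41 for Meg3 at P28, and -0.0047 to 0.19 for Ndn and -0.093 to 0.10 for Sgce in the difference between ages. In Smo* cells it gave -0.054 to 0.093 for Ndn, -0.096 to 0.18 for Peg10 and -0.34 to 0.14 for Rian. In WT cells it gave -0.25 to 0.37 for Mest, -0.51 to 0.12 for Meg3, -0.050 to 0.015 for Grb10 and -0.16 to 0.033 for Ndn. The log2 ratio of Peg10 over Sgce at P20 ran from -0.13 to 0.20.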
